A study of Mus musculus with 6 samples.

Results

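The focal adhesion plaque is the layer of proteins between integrin tails and actin filaments, and 35 genes of its adaptors, actin linkers and kinases were described here in mouse bone marrow-derived macrophages (BMDMs). They were chosen by gene symbol as known plaque components, without the integrins and without the GIT-PIX complex, out of 52550 genes of the count table. All 35 were found, and all 35 were among the 16287 genes with enough counts to be tested. The choice was made with results of the same contrast known, the calls of Tns1 and Sorbs3 among them, so the fold changes of the members are a description and carry no test of their own.

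GIT1 is a scaffold protein that is itself recruited to adhesions through paxillin, and the study asked what its loss changes in macrophages. The GIT1 CKO group came from mice with a floxed Git1 gene and Cre driven by Lyz2, a myeloid gene, and the control group, labelled CWT, is written GIT1 CWT here and the study's methods name mice with the floxed gene (GIT1 fl/fl) as the controls. Both groups were C57BL/6 cells grown for 7 days in 25 ng/mL of M-CSF (macrophage colony-stimulating factor) and treated with 100 ng/mL of LPS (bacterial lipopolysaccharide), so no untreated cells were compared. Each group had 3 mRNA libraries. Donor age and the number of mice behind a library are not stated in the labels or methods, and p-values would measure only the spread between these libraries.

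In a plaque, talin and kindlin bind the integrin tail, vinculin joins talin to actin under load, and tensins take over the link in more mature, fibrillar adhesions. The ILK, PINCH and parvin proteins form a second bridge to actin, zyxin and the Ena/VASP proteins act on actin filament ends, and the Cas, Crk and DOCK-ELMO proteins pass the signal to the GTPase Rac. Macrophages use the same parts in podosomes, small actin-rich contacts, and express a blood cell set of them, with kindlin-3, leupaxin, gamma-parvin and EVL in place of or beside the forms of other tissues.

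Values are CPM, which are counts relative to the library total, after TMM scaling, which corrects that total for composition. Total counts ran from 81131281 to 157485640 in the GIT1 CKO libraries and from 61895190 to 68083745 in the GIT1 CWT libraries. The lowest count of a member in a library was 23 and the highest was 157517. GIT1 CWT replicate 2 was in the pairs of libraries with the lowest correlations. Across genes, which are not replicates, Pearson's r of log2 CPM was 0.940 to 0.963 for the pairs with it and 0.960 to 0.988 for the other pairs. These ranges overlapped through its pair with GIT1 CWT replicate 3. The targeted gene did not separate the groups: Git1 had 72.8, 74.5 and 73.8 CPM in GIT1 CKO and 71.9, 103 and 82.2 CPM in GIT1 CWT libraries, with a log2 fold change of -0.22 ± 0.145 (SE). Counts over the whole gene do not show which exons were deleted, so the labels of these libraries rest on the submitters. The study reports genotyping of tail DNA by PCR and Western blots of GIT1 in primary cells, BMDMs among them. Lyz2, the gene that holds the Cre, had 15766, 15379 and 16947 CPM in GIT1 CKO and 31760, 39522 and 34498 CPM in GIT1 CWT libraries. Y-linked genes summed to 0, 0.0248 and 0 CPM in GIT1 CKO and 81.5, 26.4 and 56.0 CPM in GIT1 CWT libraries, and Xist was at 1051, 1111 and 1058 CPM against 607, 226 and 384 CPM. Y-linked RNA was thus absent or nearly so in the libraries labelled GIT1 CKO, while each library labelled GIT1 CWT held Xist and Y-linked RNA together. Whether a GIT1 CWT library was a pool of mice of both sexes is not stated in the labels or methods, and donor sex and genotype cannot be told apart in any value below.

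Sequences upstream of a matched start site are printed for members more than 1 from 0 on the log2 fold change scale. They are also printed for members that hold a motif of the actin-regulated factor SRF. RefSeq start sites of GRCm38.p6 were matched by symbol for 29 of the 35 members, and Sorbs3 was not among them. Tns1 and Crk, which are more than 1 from 0 on the log2 fold change scale, are given with the last 100 bases before the start, the run for Tns1 at chr1:74124549-74124648 on the minus strand and that for Crk at chr11:75679159-75679258 on the plus strand.
Tns1: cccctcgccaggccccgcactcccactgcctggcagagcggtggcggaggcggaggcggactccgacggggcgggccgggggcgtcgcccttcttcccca
Crk: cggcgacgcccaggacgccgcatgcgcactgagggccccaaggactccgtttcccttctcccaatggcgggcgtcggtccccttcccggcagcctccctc
The 250 bases before the Tns1 start held 74.4% G and C with 30 CG pairs, and those before the Crk start held 62.4% with 18 CG pairs. The median over all 32851 windows of the same length was 52.4% with 6 CG pairs, and over the 38 windows of members it was 64.6% with 17.5.

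Vcl and Fermt2 held a CArG box, the motif of SRF, in the 250 bases before to 50 after the start, searched on both strands. That is 2 of 38 member windows (5.26%), against 1.63% of all windows. Both stretches are shown with the motif in capitals, that of Vcl at chr14:20929148-20929205 on the plus strand and that of Fermt2 at chr14:45530235-45530294 on the minus strand.
Vcl: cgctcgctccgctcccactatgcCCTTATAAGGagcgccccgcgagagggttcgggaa
Fermt2: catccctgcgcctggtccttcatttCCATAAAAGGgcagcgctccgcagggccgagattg
Other motifs searched on both strands were the E-box CACGTG, the CRE TGACGTCA, the PU.1 site GAGGAAGT and the AP-1 site TGACTCA or TGAGTCA. The E-box was before Ilk and Lims1 (7.15% of all windows hold it), the CRE before Crkl (1.79%), the PU.1 site at Elmo1, Lims1 and Parvg (3.2%) and the AP-1 site before Zyx (5.2%). A match is a description of the letters and not a bound site.

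Among all 35 members, Tns1 and Sorbs3 were called lower in GIT1 CKO BMDMs, and none was called higher, at a Benjamini-Hochberg adjusted p under 0.05 by edgeR's quasi-likelihood test over all genes tested. That is 5.71% of the members, beside 0.755% of all genes tested, of which 0.27% were called lower and 0.485% higher. Since both calls were known when the members were chosen, nothing is read from the difference between these shares. At an unadjusted p under 0.05 there were 8 members, 7 of them lower, beside 17.5% of all genes in either direction and 8.45% lower. DESeq2 called 4 members (Tns1, Sorbs3, Ilk and Crk), beside 4.89% of the genes it tested. Nothing is read from these counts either. In 8 members (22.9%) every GIT1 CKO library lay below every GIT1 CWT library, beside 15.1% of all genes tested. In 5 members (14.3%) every GIT1 CKO library lay above, beside 13.6% of all genes. In the other 22 members the groups overlapped.

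The middle of the members lay close to no difference. Their median log2 fold change was -0.07, with quartiles of -0.24 and 0.19, and the median of all genes tested was 0.01, with quartiles of -0.22 and 0.34. Of the members, 15 were above 0 (42.9%, beside 50.9% of all genes) and 20 below. A log2 fold change within 0.25 of 0 was found for 19 members, and 48.3% of all genes were that close. Only Tns1, Sorbs3 and Crk were more than 1 away from 0, all 3 of them on the low side.

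**Figure D1:**
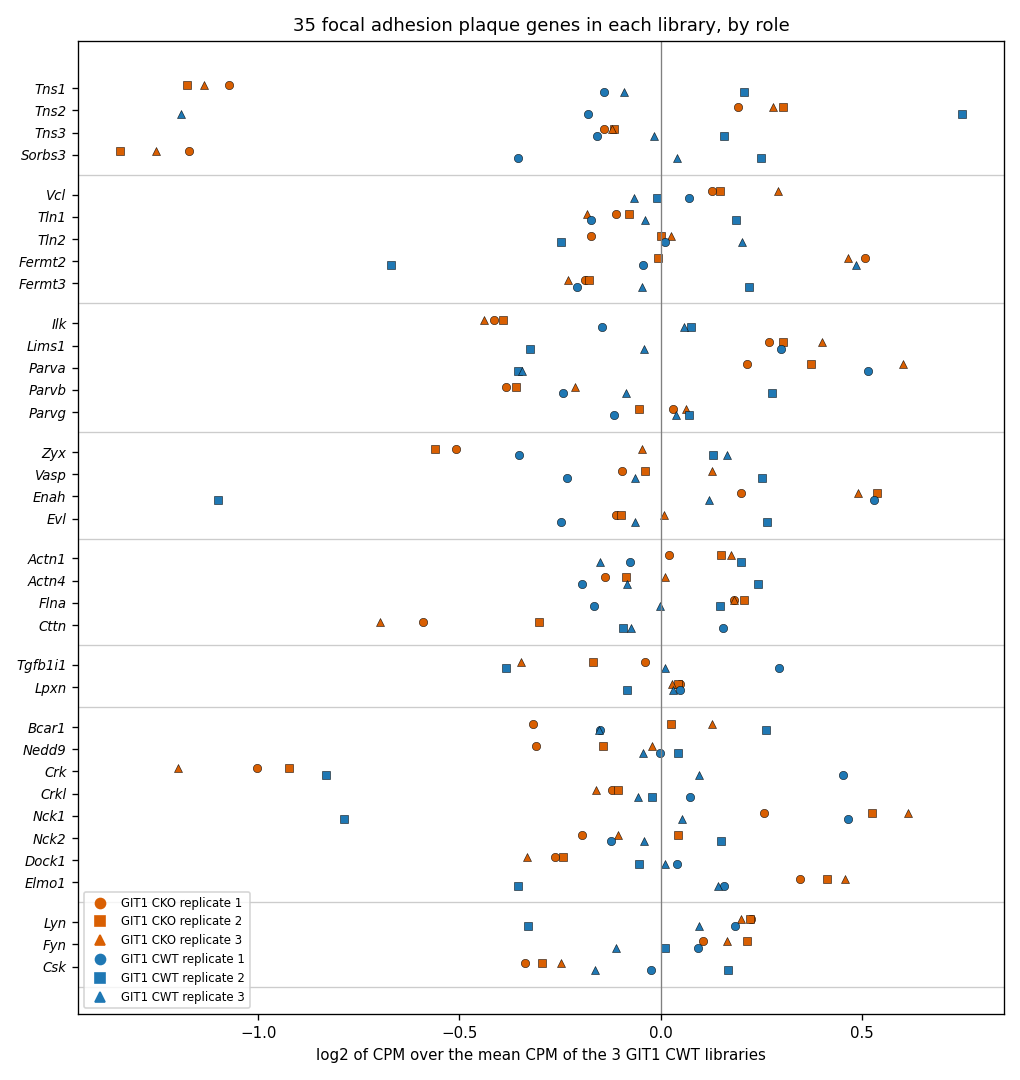
Each point is a library, placed by the log2 of its CPM over the mean CPM of the 3 GIT1 CWT libraries, with the 35 members in rows by role (orange, GIT1 CKO; blue, GIT1 CWT). The GIT1 CKO points of Tns1 and Sorbs3 stand together more than 1 unit to the left of 0, and GIT1 CWT replicate 2 (blue squares) lies far from the other blue points in members such as Tns2, Enah, Crk and Nck1.

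Tensins and vinexin held both called members. Tensin-1, encoded by Tns1 (ENSMUSG00000055322.15, chr1:73910231-74124449), binds actin and integrin tails and marks fibrillar adhesions. It had 56.9, 53.0 and 54.6 CPM in GIT1 CKO and 109, 138 and 112 CPM in GIT1 CWT libraries. The GIT1 CKO values lay within 4 CPM of each other and far below the lowest GIT1 CWT value, with a fold of 0.458 and a log2 fold change of -1.13 ± 0.121 (SE). Sorbs3 (ENSMUSG00000022091.5, chr14:70180468-70207637) encodes vinexin, a vinculin-binding adaptor. It had 7.11, 6.31 and 6.71 CPM in GIT1 CKO and 12.5, 19.0 and 16.5 CPM in GIT1 CWT libraries. Its groups did not overlap either, the log2 fold change being -1.25 ± 0.176 (SE), although relative to their mean the GIT1 CWT libraries differed more than those of Tns1. In these bulk samples, fewer cells of a type and less RNA per cell cannot be told apart.

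The groups overlapped for the other tensins among the members. Tns3, the most abundant tensin here, had 313, 319 and 318 CPM in GIT1 CKO and 309, 385 and 341 CPM in GIT1 CWT libraries. Tns2 was low, at 0.972, 1.05 and 1.03 CPM in GIT1 CKO and 0.751, 1.43 and 0.372 CPM in GIT1 CWT libraries. The log2 fold changes were -0.12 ± 0.103 for Tns3 and 0.26 ± 0.468 for Tns2, and that of Tns2 was 0.88 without GIT1 CWT replicate 2 and -0.07 without GIT1 CWT replicate 3, so it has no settled direction. Tns4, a tensin outside the 35 genes, had 9.15, 8.44 and 10.5 CPM in GIT1 CKO and 10.6, 11.6 and 12.4 CPM in GIT1 CWT libraries, all lower but close (-0.31 ± 0.136, not called). Expressed per kilobase of exon, which allows levels to be compared between genes, Tns1 made up 10.3% to 11.2% of the summed level of Tns1, Tns2 and Tns3 in GIT1 CKO libraries and 18.7% to 19.9% in GIT1 CWT libraries. Tns3 made up 88.2% to 89.1% in GIT1 CKO and 79.5% to 81.1% in GIT1 CWT libraries, so it was the main one of these 3 in all 6.

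**Figure D2:**
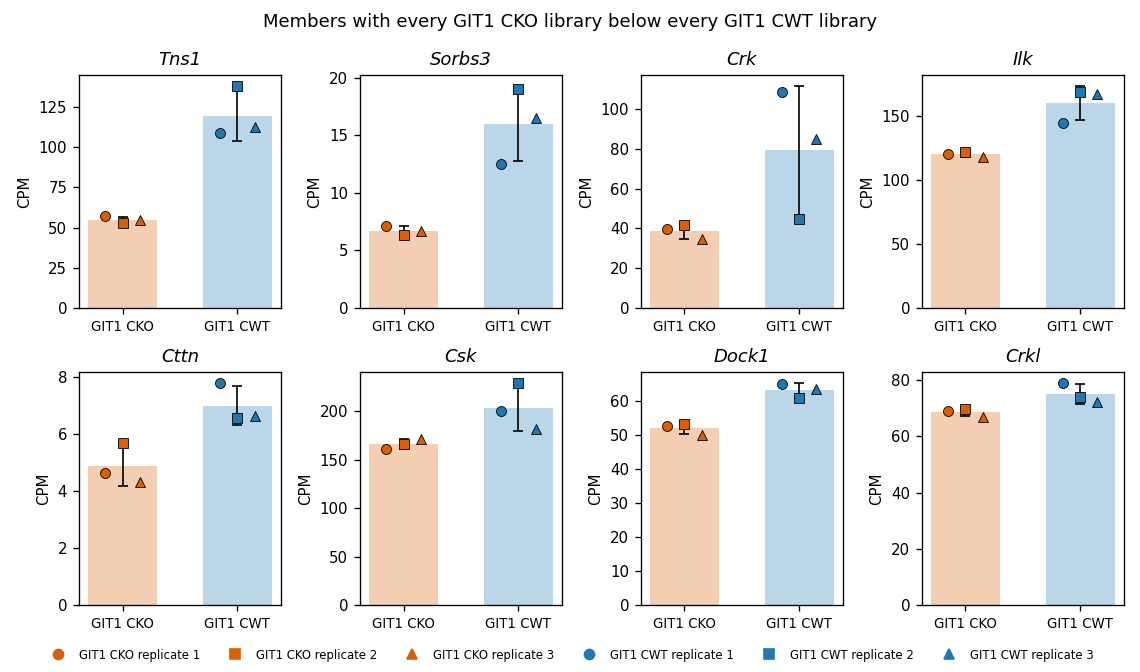
CPM of the 8 members in which all 3 GIT1 CKO libraries lay below all 3 GIT1 CWT libraries, with bars at the group mean, error bars of 1 SD and a point per library (n = 3 each, linear axes that start at 0). The gap is wide beside the spread for Tns1 and Sorbs3, while for Crk the GIT1 CWT libraries run as far as from 44.5 to 109 CPM and for Crkl the groups nearly touch.

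Talin-1 and kindlin-3, which bind integrin tails and hold the integrin active, differed little between groups. Tln1 had 957, 978 and 909 CPM in GIT1 CKO and 915, 1177 and 1005 CPM in GIT1 CWT libraries. Fermt3, the kindlin of blood cells, had 423, 427 and 412 CPM in GIT1 CKO and 418, 562 and 468 CPM in GIT1 CWT libraries. In both, GIT1 CWT replicate 2 was the highest library and replicate 1 lay among the GIT1 CKO values, with log2 fold changes of -0.12 ± 0.113 for Tln1 and -0.20 ± 0.122 for Fermt3. Their relatives were hardly expressed. Tln2 had 1.90, 2.14 and 2.18 CPM in GIT1 CKO and 2.16, 1.80 and 2.46 CPM in GIT1 CWT libraries (log2 fold change -0.05 ± 0.197), and per kilobase Tln1 made up over 99.8% of the talin level in every library. Fermt2, the kindlin of most adherent cells, had 1.99, 1.39 and 1.93 CPM in GIT1 CKO and 1.36, 0.879 and 1.96 CPM in GIT1 CWT libraries (0.34 ± 0.334, or 0.12 without GIT1 CWT replicate 2 and 0.69 without replicate 3), and Fermt3 made up over 99.4% of the kindlin level of both.

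Vinculin, which strengthens the talin-actin link, was 1 of the 5 members with all GIT1 CKO libraries higher. Vcl had 31.4, 31.8 and 35.2 CPM in GIT1 CKO and 30.2, 28.5 and 27.4 CPM in GIT1 CWT libraries. The distance between the groups, 31.4 against 30.2 CPM at the nearest, was smaller than the range within either group, and the log2 fold change was 0.19 ± 0.1. The model of Vcl shares 2090 exon bases with Ap3m1 on the opposite strand, a gene with 258% of the counts of Vcl. The sources do not say whether counting used strand, so reads of the 2 genes may not be told apart. Ap3m1 had 87.8, 91.5 and 87.4 CPM in GIT1 CKO and 92.3, 38.9 and 59.3 CPM in GIT1 CWT libraries. Its log2 fold change was 0.49 ± 0.291, and whether its reads have a part in the value of Vcl was not tested. Tln1, Evl, Actn1 and Lyn share shorter exon stretches with opposite-strand genes that have at most 8.73% of their counts.

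In the ILK-PINCH-parvin complex, the pseudokinase at its centre was the member that stood apart. Ilk (ENSMUSG00000030890.16, chr7:105736592-105742925) had 120, 122 and 118 CPM in GIT1 CKO and 144, 169 and 167 CPM in GIT1 CWT libraries. All GIT1 CKO values were lower, with a log2 fold change of -0.41 ± 0.0956, and the difference did not pass the adjusted threshold. Ilk shares 2106 exon bases with Taf10 on the opposite strand, which had 66.1% of its counts and a log2 fold change of -0.07 ± 0.0929. PINCH-1, encoded by Lims1, had 128, 132 and 141 CPM in GIT1 CKO and 131, 85.0 and 104 CPM in GIT1 CWT libraries, which overlap through GIT1 CWT replicate 1 (0.33 ± 0.163).

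The parvins bind ILK and actin, and the form that dominates depends on the tissue. Gamma-parvin, of blood cells, had 66.7, 62.9 and 68.2 CPM of Parvg in GIT1 CKO and 60.3, 68.6 and 67.1 CPM in GIT1 CWT libraries, with a log2 fold change of 0.01 ± 0.0978. Parvb had 61.4, 62.4 and 69.2 CPM in GIT1 CKO and 67.8, 97.1 and 75.5 CPM in GIT1 CWT libraries (-0.32 ± 0.152), overlapping by 1 library. Per kilobase, Parvg held 58.2% to 60.6% of the parvin level in GIT1 CKO and 50.1% to 55.8% in GIT1 CWT libraries, and Parvb held 39.0% to 41.3% and 43.8% to 49.7%. These ranges did not overlap, although neither gene was called. Alpha-parvin was low, with 1.50, 1.68 and 1.97 CPM of Parva in GIT1 CKO and 1.85, 1.01 and 1.02 CPM in GIT1 CWT libraries (0.40 ± 0.304).

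Zyxin and the Ena/VASP proteins gather at adhesions under tension and speed actin growth there. Zyx had 122, 117 and 168 CPM in GIT1 CKO and 136, 190 and 194 CPM in GIT1 CWT libraries. It was among the most variable of the well expressed members in both groups, GIT1 CKO replicate 3 being the high library of its group and GIT1 CWT replicate 1 the low one of the other, and the log2 fold change was -0.35 ± 0.197. Vasp had 167, 174 and 196 CPM in GIT1 CKO and 152, 213 and 171 CPM in GIT1 CWT libraries, and Evl had 212, 214 and 230 CPM against 193, 275 and 219 CPM. In both, the GIT1 CKO libraries fell inside the GIT1 CWT range, with log2 fold changes of 0.00 ± 0.144 and -0.07 ± 0.142. EVL and VASP shared the family, with Evl at 51.1% to 53.0% of the level per kilobase in GIT1 CKO and 53.0% to 53.4% in GIT1 CWT libraries. Enah, the form of fibroblasts and neurons, was at 1.28, 1.62 and 1.57 CPM in GIT1 CKO and 1.61, 0.521 and 1.21 CPM in GIT1 CWT libraries (0.42 ± 0.408, or 0.10 without GIT1 CWT replicate 2 and 0.78 without replicate 1).

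Of the actin crosslinkers, filamin A and cortactin were the 2 without overlap, in opposite directions. Flna, which lies on the X chromosome, had 622, 633 and 622 CPM in GIT1 CKO and 489, 607 and 548 CPM in GIT1 CWT libraries. Its GIT1 CKO values were nearly equal and all higher, by a log2 fold change of 0.19 ± 0.102, and the X- and Y-linked values given above differed between the same groups; whether donor sex has a part in the value was not tested. Cttn encodes cortactin, a branched-actin protein of podosomes. It had 4.65, 5.67 and 4.31 CPM in GIT1 CKO and 7.78, 6.55 and 6.64 CPM in GIT1 CWT libraries. All GIT1 CKO values were lower (-0.52 ± 0.165). Hcls1, a relative of Cttn outside the members, had 538, 527 and 586 CPM in GIT1 CKO libraries. Its GIT1 CWT libraries had 466, 610 and 519 CPM, with overlap (0.05 ± 0.12). The alpha-actinins, which bundle actin filaments, overlapped between groups. Actn4 had 215, 222 and 238 CPM in GIT1 CKO and 206, 279 and 223 CPM in GIT1 CWT libraries (-0.07 ± 0.131), and Actn1 had 77.9, 85.1 and 86.5 CPM against 72.8, 88.1 and 69.1 CPM (0.12 ± 0.122). Actn4 was the main form, with 70.2% to 71.3% of their level per kilobase in GIT1 CKO and 71.9% to 74.4% in GIT1 CWT libraries.

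The paxillin family bears on GIT1 most directly, since paxillin binds GIT1. Leupaxin, its relative in blood cells, was the most abundant of the 35 genes per kilobase and among the least variable. Lpxn had 195, 194 and 192 CPM in GIT1 CKO and 195, 178 and 193 CPM in GIT1 CWT libraries, with a log2 fold change of 0.04 ± 0.0823. Hic-5, the form of smooth muscle and fibroblasts, was low, Tgfb1i1 having 2.08, 1.90 and 1.68 CPM in GIT1 CKO and 2.62, 1.64 and 2.15 CPM in GIT1 CWT libraries (-0.18 ± 0.233).

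Among the adaptors that lead to Rac, Crk had the log2 fold change farthest from 0, with a wide spread in GIT1 CWT. Crk (ENSMUSG00000017776.15, chr11:75679259-75706908) joins tyrosine-phosphorylated Cas and paxillin to DOCK1. It had 39.6, 41.8 and 34.5 CPM in GIT1 CKO and 109, 44.5 and 84.7 CPM in GIT1 CWT libraries. GIT1 CWT replicate 2 was close to the GIT1 CKO libraries and the other GIT1 CWT libraries were over 80 CPM, so the log2 fold change of -1.04 carried an SE of 0.309 and did not pass the threshold. Without GIT1 CWT replicate 2 it was -1.30 and Crk was called, and without GIT1 CWT replicate 1 it was -0.74. Crkl, its close relative, had 69.0, 69.6 and 67.0 CPM in GIT1 CKO and 78.8, 73.9 and 72.1 CPM in GIT1 CWT libraries. The groups of Crkl did not overlap, but the difference was small, at -0.13 ± 0.0887. Crk made up 35.4% to 39.0% of the level of both per kilobase in GIT1 CKO and 39.1% to 59.5% in GIT1 CWT libraries.

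DOCK1 and ELMO1 form an exchange factor that loads Rac with GTP, and their genes stood apart in opposite directions. Dock1 had 52.6, 53.4 and 50.1 CPM in GIT1 CKO and 65.0, 60.9 and 63.6 CPM in GIT1 CWT libraries, all lower, with a log2 fold change of -0.28 ± 0.0895 and little spread in either group. Elmo1 had 76.7, 80.4 and 82.8 CPM in GIT1 CKO and 67.3, 47.2 and 66.6 CPM in GIT1 CWT libraries, all higher (0.41 ± 0.154), with GIT1 CWT replicate 2 well under the rest. Dock2, a DOCK gene outside the members, had 639, 650 and 622 CPM in GIT1 CKO libraries. Its GIT1 CWT libraries had 605, 602 and 649 CPM, with overlap and a log2 fold change of 0.04 ± 0.0798. The Cas genes among the members did not separate. Nedd9 had 15.0, 16.8 and 18.3 CPM in GIT1 CKO and 18.5, 19.1 and 18.0 CPM in GIT1 CWT libraries (-0.15 ± 0.114), and Bcar1, which encodes p130Cas, had 0.896, 1.14 and 1.22 CPM against 1.01, 1.34 and 1.00 CPM (-0.04 ± 0.253). Of the summed level of Nedd9 and Bcar1 per kilobase, Nedd9 thus made up 91.3% to 92.3% in GIT1 CKO and 91.0% to 92.9% in GIT1 CWT libraries. Cass4, a Cas gene outside the members, had 16.0, 17.4 and 16.6 CPM in GIT1 CKO libraries. Its GIT1 CWT libraries had 18.5, 20.4 and 18.8 CPM, all of them higher, with a log2 fold change of -0.21 ± 0.101 that was not called.

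The Nck adaptors, which link phosphotyrosine to actin assembly, overlapped too. Nck1 had 21.2, 25.5 and 27.2 CPM in GIT1 CKO and 24.5, 10.3 and 18.4 CPM in GIT1 CWT libraries, and its log2 fold change of 0.47 ± 0.303 was the highest of the members. It was 0.22 without GIT1 CWT replicate 2, the lowest library, and 0.78 without GIT1 CWT replicate 1. Nck2 had 24.5, 29.0 and 26.1 CPM in GIT1 CKO and 25.8, 31.2 and 27.3 CPM in GIT1 CWT libraries (-0.08 ± 0.12).

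The tyrosine kinases of adhesions included Csk, which puts the inhibitory phosphate on Src family kinases, and Lyn and Fyn, which carry it. Csk had 162, 166 and 172 CPM in GIT1 CKO and 201, 229 and 182 CPM in GIT1 CWT libraries, all lower (-0.29 ± 0.108). Lyn, the main kinase of the pair in macrophages here, had 435, 434 and 428 CPM in GIT1 CKO and 423, 296 and 398 CPM in GIT1 CWT libraries, and Fyn had 26.8, 29.0 and 28.0 CPM against 26.6, 25.2 and 23.1 CPM. All GIT1 CKO libraries were higher for both, but by 428 against 423 CPM for Lyn and 26.8 against 26.6 CPM for Fyn at the nearest, and the log2 fold changes were 0.22 ± 0.141 and 0.16 ± 0.101. Lyn held 94.1% to 94.6% of their level per kilobase in GIT1 CKO and 92.7% to 94.9% in GIT1 CWT libraries.

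**Figure D3:**
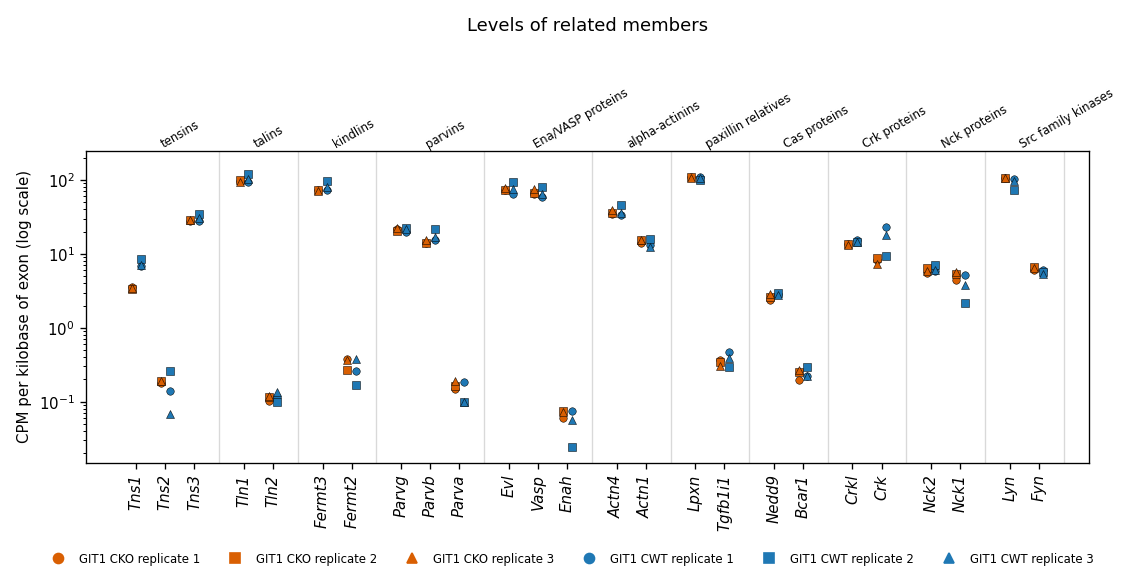
CPM per kilobase of exon on a log scale for members with a relative among the 35, a point per library (orange, GIT1 CKO; blue, GIT1 CWT). In the talins, kindlins and paxillin relatives (Lpxn and Tgfb1i1, without Pxn itself) a single form holds over 99% of the level in both groups. Tns1 is the form whose GIT1 CKO points all lie visibly under its GIT1 CWT points.

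The levels of the 35 genes covered a wide range that both groups shared. Per kilobase, the highest mean over the 6 libraries was 107 CPM for Lpxn, followed by Tln1 with 101 and Lyn with 98.8, and the lowest was 0.0608 for Enah. The ranges of these top 3 over the libraries overlapped, so their order does not exceed their spread. There were 14 members over 20 CPM per kilobase and 7 under 1, namely Tns2, Tln2, Fermt2, Parva, Enah, Tgfb1i1 and Bcar1. Tns1 was 23rd with 5.45 CPM per kilobase, and Sorbs3 was 26th with 3.13.

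Marker genes of other cell types were summed in each library. The fibroblast and stromal list without Fn1, which macrophages also express, summed to 76.9, 73.1 and 71.4 CPM over its 14 genes in GIT1 CKO and 63.6, 81.0 and 74.7 CPM in GIT1 CWT libraries. The endothelial list of 8 genes summed to 48.8 to 50.1 CPM in GIT1 CKO, against 48.8 to 62.2 CPM in GIT1 CWT libraries. The megakaryocyte list of 8 genes, most of it Pf4, summed to 366 to 409 CPM in GIT1 CKO, against 374 to 481 CPM in GIT1 CWT libraries. The groups overlapped in these 3 sums, but single genes did not. Pecam1, of the endothelial list, was called higher, with 18.6, 18.0 and 17.4 CPM in GIT1 CKO and 8.75, 7.85 and 8.53 CPM in GIT1 CWT libraries (1.10 ± 0.108). Vwf, the most abundant gene of that list, ran the other way, with 25.3, 26.0 and 25.7 CPM in GIT1 CKO and 35.8, 48.3 and 38.7 CPM in GIT1 CWT libraries (-0.67 ± 0.134, not called). The 7 endothelial genes tested had a median log2 fold change of 0.64, with 5 above 0. In the fibroblast list, where 8 of 12 genes tested were above 0, Dcn had 1.65, 1.21 and 0.934 CPM in GIT1 CKO and 0.447, 0.581 and 0.421 CPM in GIT1 CWT libraries (1.38 ± 0.317). Col3a1 was also higher in every GIT1 CKO library, with 5.11, 4.30 and 3.97 CPM against 2.94, 2.89 and 3.29 CPM (0.55 ± 0.168), and neither gene was called. The part of such cells in the values of Tns1, Sorbs3 and the members under 1 CPM per kilobase was not tested. The 10 neutrophil genes summed to at most 2.84 CPM in GIT1 CKO, against at most 4.14 CPM in GIT1 CWT libraries, and the 8 lymphocyte genes to at most 0.357 and 0.389 CPM, with 3 to 7 of those at 0 in a library. The macrophage list of 10 genes summed to 28694 to 30518 CPM in GIT1 CKO, against 44998 to 53225 CPM in GIT1 CWT libraries, a difference made mostly by Lyz2. All 10 macrophage genes had counts in every library, and their log2 fold changes split evenly, 5 above and 5 below 0. Csf1r had 5542, 5612 and 5426 CPM in GIT1 CKO and 5989, 7547 and 6654 CPM in GIT1 CWT libraries, all lower. Adgre1 had 4011, 3998 and 3966 CPM in GIT1 CKO and 3254, 2195 and 3114 CPM in GIT1 CWT libraries, all higher, and neither was called.

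The spread within the groups was unequal. For the 25 members that averaged 20 CPM or more, the SD was at the median 3.88% of the mean in GIT1 CKO, against 13.2% in GIT1 CWT libraries, beside 4.06% and 14.9% for all genes of that level. Much of the spread in GIT1 CWT ran with GC content (the share of G and C in the longest transcript of a gene), which was 39.2% to 61.0% in the members. Across the 35 members, Spearman's rho of GC content with the log2 ratio of GIT1 CWT replicate 2 to the mean of replicates 1 and 3 was 0.876, a description over genes of the same libraries. Its rho with the log2 fold change of GIT1 CKO over GIT1 CWT was -0.42. GC-poor members such as Nck1 (39.2%), Lims1 (40.7%), Crk (43.8%) and Enah (44.2%) were low in GIT1 CWT replicate 2, and GC-rich ones such as Tns2 (58.8%) and Parvb (55.5%) were high there.

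**Figure D4:**
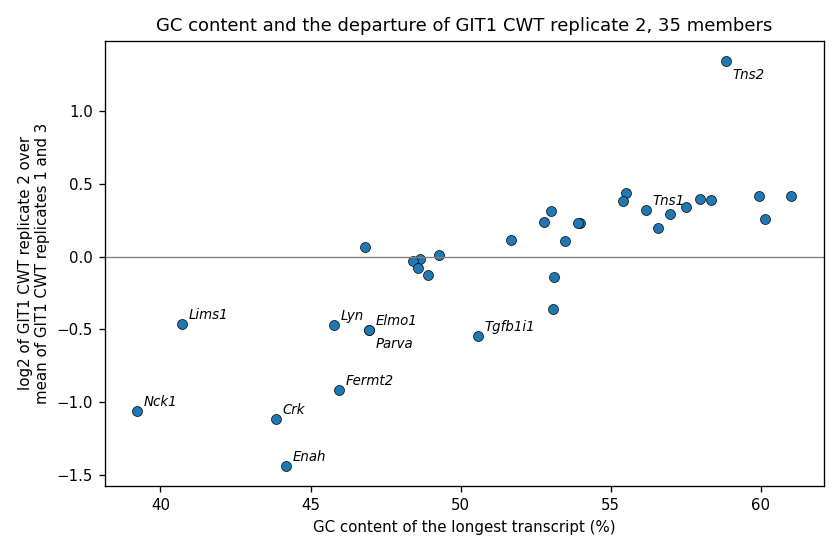
GC content of the longest transcript in percent against the log2 ratio of GIT1 CWT replicate 2 to the mean of GIT1 CWT replicates 1 and 3, 1 point per member. The points climb with GC content (Spearman's rho 0.876 over 35 members), with Nck1, Crk and Enah more than 1 unit below 0 and Tns2 more than 1 unit above it.

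The fit was repeated after each library's GC trend was taken out, and rho of GC content with the fold change over the members was then -0.012. Tns1 and Sorbs3 kept their calls, with log2 fold changes of -0.98 ± 0.0574 and -1.08 ± 0.105. The same fit also called Ilk (-0.33 ± 0.0538), Crk (-1.22 ± 0.175) and Dock1 (-0.28 ± 0.0567) lower and Flna (0.32 ± 0.0419) higher, which makes 6 members, while it called 4.98% of all genes, against 0.755% without the removal. For Nck1 and Lims1, whose values of 0.47 and 0.33 were among the highest, it gave -0.04 ± 0.095 and -0.15 ± 0.116, and 6 other members also changed sign, namely Tln1, Tln2, Evl, Actn4, Bcar1 and Nck2. The directions of these 8 members are thus not settled by these libraries.

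**Figure D5:**
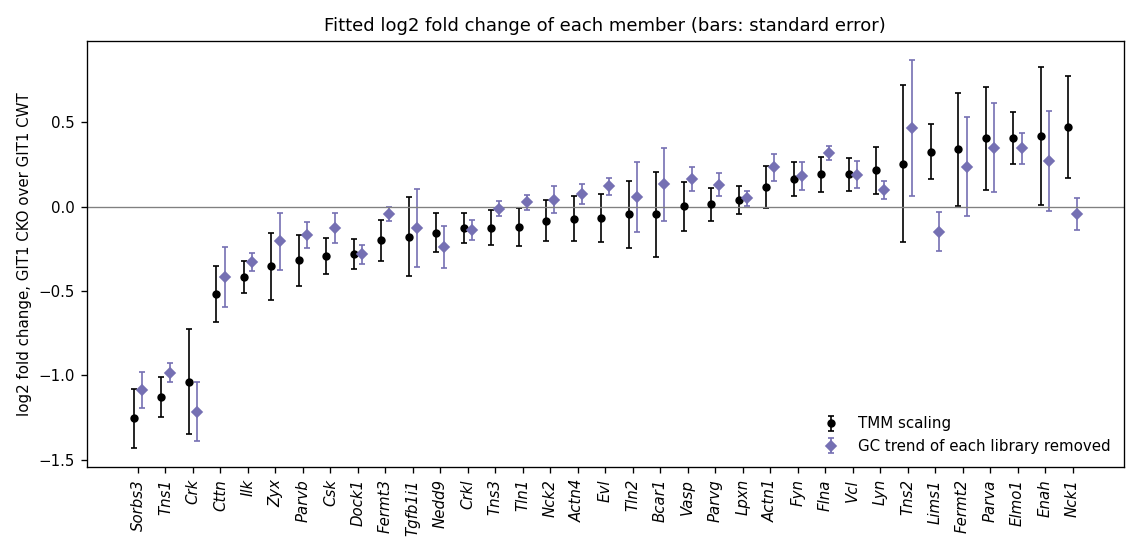
Fitted log2 fold change (GIT1 CKO over GIT1 CWT) of the 35 members in ascending order, with SE, under TMM scaling (black) and after removal of each library's GC trend (purple). Sorbs3, Tns1 and Crk lie near or beyond -1 in both fits, and Lims1 and Nck1 are above 0 in the first and below it in the second.

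Leaving out 1 library at a time kept Tns1 between -1.19 and -0.99 and Sorbs3 between -1.40 and -1.09. Their calls were lost without any 1 of the GIT1 CKO libraries and without GIT1 CWT replicate 3, when the fit called 3, 4, 92 and 1 of all genes, and were kept without GIT1 CWT replicate 1 or 2. For Ilk the range was -0.48 to -0.35, for Dock1 -0.30 to -0.25, for Cttn -0.64 to -0.44, for Csk -0.34 to -0.18, for Elmo1 0.28 to 0.51 and for Crk -1.30 to -0.74.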

How the data were processed

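Per the submitters' processing notes, the authors used fastp 0.17.1, HISAT2 2.1.0 and, in R 3.4.3, DESeq2 1.18.1. How reads were counted, with or without strand, and on which build is not stated there or in the labels. The deposited table held whole-number counts per gene and library, which were the input here. Its 6 columns of normalized counts and its columns of fold changes and p-values were not used. Of its gene IDs, 52403 were in GENCODE M21 (GRCm38), 96.49% of them with the same start, and exon lengths and GC content came from there. Promoter windows came from RefSeq (GRCm38.p6).

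Counts were fitted with edgeR 4.0.16 in R 4.3.3 (filterByExpr with a minimum count of 10, TMM, robust quasi-likelihood F-test, Benjamini-Hochberg adjustment over 16287 genes). The fit was also run on simulated counts that had the same spread in both groups and no GC trend. That run does not bear on the unequal spread and the GC trend of these libraries. The SE is the log2 fold change divided by the root of F. The alternatives were RLE and upper-quartile scaling, no filter, DESeq2 1.42.0, thinned counts, GC trend removal (lowess, span 0.3), the replicate number as a block and each library left out. Members and lists were chosen with earlier results of these data known. Named were all members, Git1, called genes of each pathway list and a few markers. Lyz2, Xist, the Y-linked genes, Csf1r, Adgre1, Vwf, Dcn, Col3a1 and Pxn were named after their values were seen. The same holds for Tns4, Dock2, Cass4, Hcls1, overlapping genes, Kank2 and Lsp1.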

Additional observations from a re-analysis of the deposited data

How the results depend on the processing

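Of the 35 members, 2 were called, and 2 were also called with RLE scaling, with no filter on low counts and with counts thinned to the smallest total. The number was 1 with upper-quartile scaling (Tns1), 6 with the GC trend removed and 4 with DESeq2, and it was 0 to 3 when 1 library was left out. The replicate block left 0 members called and 1 of all genes, with log2 fold changes of -1.12 for Tns1 and -1.24 for Sorbs3. Deviations of same-numbered libraries from their group means correlated at -0.0454, 0.0399 and 0.0103, and those of other pairs at -0.0784 to 0.0725. With means of 3 libraries and a GC trend in them, these values cannot settle whether replicate numbers paired the libraries. The median log2 fold change of the members was -0.07, 0.0428 with the GC trend removed and -0.103 to 0.0261 when 1 library was left out. For all genes, the calls were 123, 809 with the GC trend removed, 898 with DESeq2 and 1 to 1159 with 1 library left out. The cause of these changes was not tested. Counting error weighed most on Tns2, Tln2, Fermt2, Parva, Enah, Tgfb1i1 and Bcar1, the lowest members per kilobase. Signs changed with the scaling (Vasp with RLE, Vasp and Parvg with upper-quartile), with thinning (Bcar1) and without GIT1 CKO replicate 1 (Tln2, Bcar1) or 3 (Parvg, Vasp) or GIT1 CWT replicate 1 (Parvg, Vasp), 2 (Tln1, Evl, Actn4, Bcar1, Nck2) or 3 (Tns2, Tln2, Vasp).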

Other observations

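Of 24 relatives of the members, 18 were tested and their median log2 fold change was 0.00. edgeR called 0 of them, beside 0.755% of all genes tested, and DESeq2 called 0, beside 4.89% of the genes it tested. At an unadjusted p under 0.05 there was 1 (higher), beside 17.5% of all genes in either direction. The fit with the GC trend removed called 2, both higher, beside 4.98% of all genes. Pxn, the paxillin gene, had 228, 203 and 188 CPM in GIT1 CKO and 200, 323 and 215 CPM in GIT1 CWT libraries, which overlap. Of 36 other plaque genes, 35 were tested with a median of -0.05, and edgeR called 0, beside 0.755% of all genes tested. At an unadjusted p under 0.05 there were 7 (6 lower, 1 higher), beside 17.5% of all genes in either direction and 8.45% lower. DESeq2 called 2, both lower, beside 4.89% of the genes it tested. The fit with the GC trend removed called 1, as lower, beside 4.98% of all genes. Nothing is read from these counts. Kank2, a talin-binding protein at the rim of adhesions, had 32.3, 34.5 and 29.4 CPM in GIT1 CKO and 44.9, 57.1 and 48.0 CPM in GIT1 CWT libraries, with a log2 fold change of -0.64 ± 0.129 that edgeR did not call.

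Of 18 podosome genes, edgeR called 1, Myo1e, a membrane-binding myosin, as higher, beside 0.755% of all genes tested and 0.485% called higher. At an unadjusted p under 0.05 there were 2 higher and 1 lower, beside 17.5% of all genes. DESeq2 called 1 higher (Myo1e) and 1 lower (Lsp1), beside 4.89% of the genes it tested. The fit with the GC trend removed called 2 higher (Myo1e and Mmp14) and 1 lower (Lsp1), beside 4.98% of all genes. Nothing is read from these counts. Myo1e had 149, 145 and 160 CPM in GIT1 CKO and 83.4, 80.0 and 89.3 CPM in GIT1 CWT libraries, with a log2 fold change of 0.84 ± 0.0921. Its values were well apart, and with 1 library left out the log2 fold change was 0.80 to 0.91, the call being lost without any 1 GIT1 CKO library or GIT1 CWT replicate 3. Lsp1, an actin-binding protein of leukocytes, was lower in all GIT1 CKO libraries, with 93.9, 94.7 and 101 CPM against 141, 209 and 156 CPM in GIT1 CWT libraries, with a log2 fold change of -0.80 ± 0.156 that edgeR did not call under TMM scaling alone.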
